A study of Mus musculus with 20 samples.

Results

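The genes described here are 42 mouse genes of DNA replication and mitosis, chosen by name with earlier results of these data known. Of these, 22 act in replication or its licensing, from Mcm2 to Rrm2, and 20 act in mitosis, from Mki67 to Kif23. All 42 were present among the 15855 genes of the culture table and the 15333 genes of the tumor table. The cultures were B-MF, macrophages grown from bone marrow B cells, and Mo-MF, macrophages grown from bone marrow monocytes. Both had been kept for 7 days in medium of which 50% was conditioned by 4T1.2 mammary cancer cells. The study's methods describe harvest of adherent cells from such cultures, and sort-purified cells for single-cell sequencing. There were 2 libraries of each culture, with 5237 and 5326 cells in B-MF and 4846 and 5389 cells in Mo-MF. The tumor cells were tumor-associated macrophages sorted from 4 BALB/c mice bearing 4T1.2 tumors, and the 4 libraries (called 2 to 5 after their column names) held 3180, 2318, 2387 and 3000 cells. A further 12 ATAC-seq libraries, which map open chromatin, came from CSF1R+ and CSF1R- B-cell precursors (the labels call them macrophages) of the bone marrow (BM) and spleen of naive mice, 3 of each. For such cultures the study's methods name C57BL/CJ or BALB/CJ mice as B-cell donors. The sources used here do not say which strain gave the sequenced cultures. Nothing ties the 2 libraries of a culture to separate donors, so p-values measure the spread between these libraries only.

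A dividing cell first licenses its origins by loading the Mcm2-7 helicase, then copies its DNA with the Pcna clamp and its partners, and then separates the chromosomes with the mitotic kinases, cyclins and spindle motors. E2F factors drive replication genes from late G1, and the B-Myb and FoxM1 complexes drive the mitosis genes later, through a promoter element called the CHR. Most macrophages in tissue divide seldom, although some populations renew themselves by division and grow in response to M-CSF.

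Promoters are shown for 4 members, the pair in each list with the largest difference between B-MF and Mo-MF and a searched motif in the window. Each window runs from 250 bases before to 50 bases after the RefSeq start site, on the strand of the gene, in GRCm38.p6. Capitals mark matches to the E2F motifs TTTCCCGC, TTTCGCGC, TTTGGCGC and TTTGCCGC, the CHR motifs TTTGAA and TTCGAA, and the NF-Y motif CCAAT, searched on both strands, so that ATTGG is CCAAT on the other strand. Pcna, the sliding clamp of replication, lies at chr2:132253131-132253430 on the minus strand. Cdt1, the licensing factor that loads the helicase, lies at chr8:122567765-122568064 on the plus strand. Cdk1, the kinase that starts mitosis, lies at chr10:69352863-69353162 on the minus strand, and Ccnb2, one of its cyclins, lies at chr9:70421505-70421804 on the minus strand.
Pcna: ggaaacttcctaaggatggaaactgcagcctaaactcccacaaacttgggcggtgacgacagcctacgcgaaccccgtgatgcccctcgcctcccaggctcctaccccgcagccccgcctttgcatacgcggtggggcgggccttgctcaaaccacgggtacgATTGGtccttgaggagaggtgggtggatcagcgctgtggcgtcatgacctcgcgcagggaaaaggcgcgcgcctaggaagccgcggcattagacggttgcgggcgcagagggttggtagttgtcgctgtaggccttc
Cdt1: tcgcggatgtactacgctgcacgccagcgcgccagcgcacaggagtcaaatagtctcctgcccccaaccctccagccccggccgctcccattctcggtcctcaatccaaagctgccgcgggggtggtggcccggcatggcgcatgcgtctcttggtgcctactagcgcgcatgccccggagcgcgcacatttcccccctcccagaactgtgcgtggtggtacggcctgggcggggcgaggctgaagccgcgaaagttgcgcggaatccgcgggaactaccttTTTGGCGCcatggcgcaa
Cdk1: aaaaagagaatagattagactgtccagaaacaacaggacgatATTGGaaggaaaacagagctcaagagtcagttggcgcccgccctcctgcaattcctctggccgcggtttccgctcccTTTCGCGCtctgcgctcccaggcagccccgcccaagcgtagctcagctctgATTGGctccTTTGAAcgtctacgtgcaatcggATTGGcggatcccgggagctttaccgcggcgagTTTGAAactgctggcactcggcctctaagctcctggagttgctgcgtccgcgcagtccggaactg
Ccnb2: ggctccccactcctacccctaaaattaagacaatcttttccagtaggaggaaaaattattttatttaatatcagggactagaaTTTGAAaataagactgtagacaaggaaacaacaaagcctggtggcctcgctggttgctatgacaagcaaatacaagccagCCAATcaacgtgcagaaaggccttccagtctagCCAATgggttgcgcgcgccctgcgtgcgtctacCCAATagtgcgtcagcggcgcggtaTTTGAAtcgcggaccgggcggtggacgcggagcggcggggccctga

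The Cdt1 window held 1 E2F match, TTTGGCGC at bases 32 to 39 after the start, and the Pcna window held 1 NF-Y match and neither of the other motifs. The Cdk1 window held all 3 kinds: 1 E2F match, 2 CHR matches and 3 NF-Y matches. The Ccnb2 window held 2 CHR and 3 NF-Y matches. Windows were at hand for 37 of the 42 members (not for Mcm4, Gins2, Ccne2, Aurkb and Tpx2). An E2F match was found for 10 of 19 replication genes (52.6%) and for 1 of 18 mitosis genes, Cdk1, beside 335 of 6868 (4.88%) of all genes tested in the cultures. A CHR match was found for 2 of 19 replication genes (Mcm2 and Mcm7) and for 14 of 18 mitosis genes (77.8%), beside 15.9% of all genes tested. NF-Y matches were common everywhere, in 12 of 19 replication genes, 16 of 18 mitosis genes and 42.3% of all genes tested. Among 40 further replication genes, 30 had a window, of which 8 held an E2F and 10 a CHR match, and of 39 further mitosis genes with a window 4 held an E2F and 30 a CHR match. The difference between lists was not tested. Top2a, the topoisomerase that untangles chromosomes, held 4 CHR and 6 NF-Y matches, while Birc5 and Nusap1 held no match to any of the 3. A match describes letters in the window and is not evidence of binding.

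Cells were called for a list where at least 8 of its genes had a corrected count of 1 or more, corrected counts being the depth-adjusted counts per cell that the deposited values encode. The question was how many cells of each kind carried a replication or mitosis program, and in what balance. In B-MF, 8.42% and 7.42% of cells were called for replication, against 7.02% and 8.15% in Mo-MF. The mitosis list called 5.92% and 5.07% of B-MF cells and 4.44% and 5.16% of Mo-MF cells. Libraries of the 2 cultures overlapped on both lists. The difference B-MF minus Mo-MF was 0.337 percentage points for replication and 0.697 points for mitosis (exact permutation test over 4 libraries, two-sided, p = 0.667 for each, with 0.333 the smallest p this design allows). Cells called for either list were 10.5% and 9.67% of B-MF and 8.61% and 9.69% of Mo-MF, again without separation (exact permutation p = 0.667). The replication difference went to -0.23 points without Mo-MF replicate 1 and to -0.16 points without B-MF replicate 1, so its direction rested on single libraries.

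Called cells fell into 3 classes: replication genes only, both lists, and mitosis genes only. In B-MF replicate 1 these were 242, 199 and 111 cells, and in replicate 2 they were 245, 150 and 120 cells. In Mo-MF replicate 1 they were 202, 138 and 77 cells, and in replicate 2 they were 244, 195 and 83 cells. Replication only was the most numerous class and mitosis only the least in each of the 4 libraries. The phase balance, the share of called cells with replication genes only, was 43.8% and 47.6% for B-MF and 48.4% and 46.7% for Mo-MF, a difference of -1.89 points that did not exceed the spread (exact permutation p = 0.667). Without B-MF replicate 1 this difference was -0.0195 points. The libraries of the 2 cultures separated, with the balance lower in B-MF, in 6 of the 7 other settings of the call, all but the limit of 10 genes (exact permutation p = 0.333, the smallest possible). These settings call the same cells of the same 4 libraries again, so their number is not repeated support. Thinning with a limit of 4 genes and leaving out clusters of other cell types were not planned for the balance. The difference was -1.84 points with summed counts, -2.14 after thinning to 5000, -1.17 after thinning with a limit of 4 genes and -2.31 without clusters of other cell types. With a limit of 6 genes it was larger, with a balance of 49.9% and 50.6% in B-MF against 57.5% and 54.1% in Mo-MF, and a mitosis share of 7.20% and 6.46% against 5.08% and 5.92% (exact permutation p = 0.333 for each, the smallest possible). With summed counts the mitosis share separated too, at 5.25% and 4.69% for B-MF and 4.13% and 4.68% for Mo-MF. In macrophage-like clusters only, which leave out the cluster led by mitosis genes, the balance was 77.6% and 80.7% against 86.1% and 86.8%, and the mitosis share 1.5% and 1.21% against 0.773% and 0.820% (exact permutation p = 0.333 for each). Just under the limit, 103, 77, 62 and 71 cells of the 4 libraries had 7 replication genes, and 58, 36, 40 and 46 cells had exactly 8. Fewer cells lay near the mitosis limit, 34, 34, 10 and 17 with 7 genes and 17, 11, 16 and 12 with 8. When each cell was thinned to 5000 counts (no cell was shallower), 2.56% and 1.97% of B-MF and 2.10% and 2.62% of Mo-MF were called for replication. The thinned mitosis shares were 3.69% and 3.36% for B-MF and 3.16% and 3.54% for Mo-MF, so after thinning the mitosis share exceeded the replication share in every culture library.

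**Figure D1:**
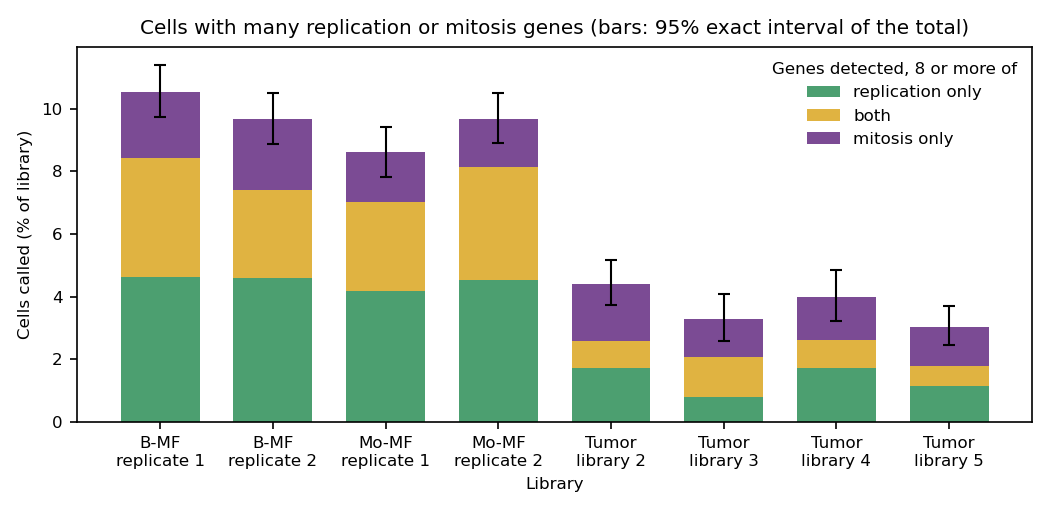
Percent of cells called in each of the 8 libraries (y axis), divided into replication genes only, both lists and mitosis genes only, with the 95% exact binomial interval of the total, which covers counting error only. The 4 culture libraries reached 8.61% to 10.5%, with overlapping B-MF and Mo-MF, and the 4 tumor libraries, which were normalized apart and are shallower, reached 3.03% to 4.4%.

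In the tumor libraries the replication share was 2.58%, 2.07%, 2.60% and 1.77%, and the mitosis share was 2.67%, 2.50%, 2.26% and 1.90%. Either list called 4.4%, 3.28%, 3.98% and 3.03% of cells. The tumor cells had median corrected counts of 7651 to 8266, against 18350 to 19469 in the cultures, and no test was made across the separately normalized tables. After thinning to 5000 counts and calling at 4 genes, a limit chosen after the values were seen, replication was called in 4.56%, 3.36%, 4.61% and 3.23% of tumor cells and in 6.97%, 5.84%, 5.53% and 6.85% of culture cells. At that setting mitosis was called in 4.25%, 3.41%, 3.90% and 3.23% of tumor cells and in 5.54%, 4.84%, 4.33% and 5.05% of culture cells. The phase balance in the tumor was 39.3%, 23.7%, 43.2% and 37.4%. Tumor library 3 had the lowest balance, and in it 39.5% of called cells carried both lists, against 19.3% to 22.1% in the other tumor libraries.

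Clusters built without the members and the further cell cycle genes placed the called cells. A cluster met a cell type where at least 3 of the markers listed for it, and at least 50% of them, had a mean above their average over the clusters and of at least 0.1. Clusters that met macrophage and monocyte markers were called macrophage-like (tumor clusters 2 and 3), those that met neutrophil or neutrophil precursor markers without monocyte markers were called neutrophil-like, and the rule was chosen after the values were seen. In both cultures a large group of called cells sat in cluster 6, led by Ube2c, Cenpf and Birc5, which were left out when it was built. Genes outside the lists were not left out, among them the histone gene Hist1h1b, another leading gene of this cluster. Cluster 6 is therefore not independent evidence for the calls. It held 41.3% and 40.2% of the called cells of B-MF and 37.6% and 40.6% of those of Mo-MF. Of cluster 6 cells, 91.2% and 87.3% were called for B-MF and 98.7% and 99.1% for Mo-MF. Outside it, B-MF called cells sat mainly in cluster 1, led by Fabp3, St3gal5 and Rasgrp3, which held 52.7% and 56.9% of them. Of cluster 1 cells, 12.5% (95% exact binomial interval 11.2 to 14.0) and 12.7% (11.4 to 14.1) were called. In cluster 0, the other large B-MF cluster, led by Pf4, Clec4n and Nr4a1 and holding C1qa among its leading genes, only 0.581% and 0.205% were called. Most of the called cells of cluster 1 had replication genes only, 225 of 291 and 237 of 293.

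The Mo-MF cells showed the same unevenness among their own clusters. Cluster 4, led by Ly6a, had 16.7% and 17.1% of its cells called, and cluster 2, led by Arg1, had 4.52% and 5.38%. In clusters 3 and 5 the share was at most 0.992%. Median genes per cell were 4143.5 in cluster 1 and 4157 in cluster 4, against 3242 in cluster 0, 3624 in cluster 3 and 2865 in cluster 5. Cluster 2 had a median of 4093, close to clusters 1 and 4, with 4.52% and 5.38% called. Over all culture cells, called cells had a median of 4495 to 4646 genes and uncalled cells 3313 to 3793, and the part of gene detection in the called shares was not tested. Neutrophil-like clusters 8 and 9 made up 10.4% and 9.59% of the Mo-MF libraries, and 3 of 5237 cells of B-MF replicate 1. In cluster 8, which also met the macrophage markers and was led by Ngp, Elane and Camp, 16.4% and 10.8% of Mo-MF cells were called. The 5 neutrophil markers had a summed level of 145.9 and 117.3 corrected counts per cell in Mo-MF, against 1.06 and 0.724 in B-MF, where Ngp, Camp and Mpo of the neutrophil precursor markers were at 0. In called cells the summed neutrophil level was 232.5 and 160.3 in Mo-MF and 0.290 and 0.367 in B-MF. The 10 macrophage markers summed to 298.7 and 287.4 in B-MF, against 605.2 and 595.6 in Mo-MF. Such a sum is weighted to the most abundant markers and does not show the direction of each one. Leading genes of single clusters went both ways. C1qa, C1qb and C1qc were among those of B-MF cluster 0, and Apoe was among those of Mo-MF clusters 3 and 5. The sum is therefore not a measure of how macrophage-like either culture was. Without clusters of other cell types, the mitosis share differed by 0.531 points and the replication share by -0.0034 points (exact permutation p = 0.667 and 1). That setting kept the unnamed clusters, cluster 6 among them, so called cells of other types can remain in it. The neutrophil precursor markers summed to 52.8 and 34.4 in called Mo-MF cells, against 13.9 and 9.34 in all Mo-MF cells. The part of cluster 6 in these sums was not tested.

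**Figure D2:**
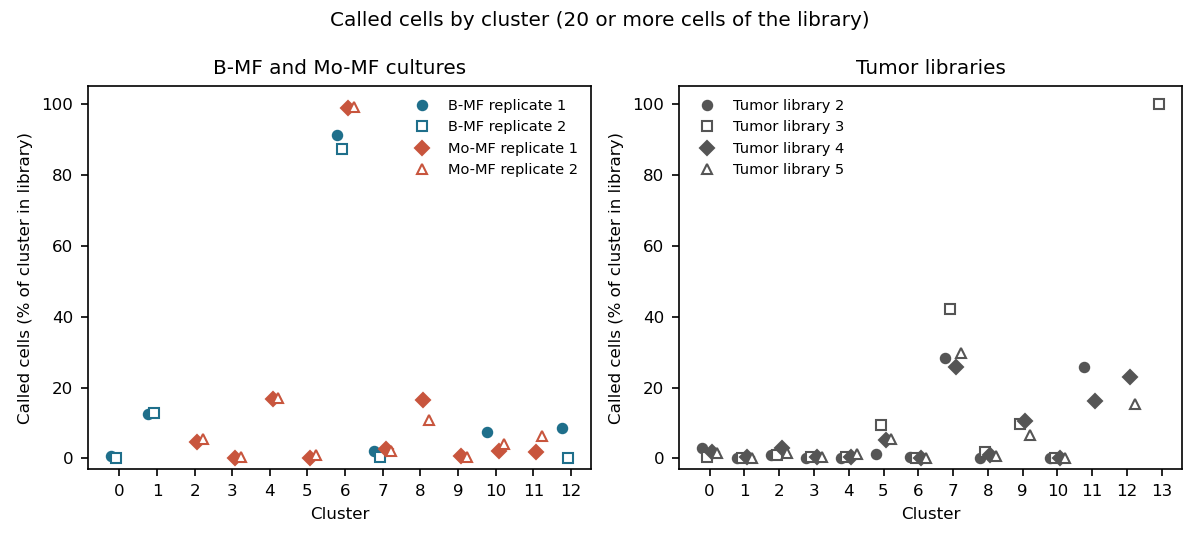
Called cells as a percent of each cluster (x axis, cluster number) in each library with 20 or more cells there, cultures left and tumor right. Cluster 6 of the cultures stood at 87.3% to 99.1%, clusters 1 and 4 at 12.5% to 17.1%, and tumor cluster 7 at 25.7% to 42.1%.

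Among the tumor cells, cluster 7, a macrophage-like cluster led by C1qc, C1qa and C1qb, had 28.2%, 42.1%, 25.7% and 29.7% of its cells called. It held 69.3%, 21.1%, 29.5% and 33.0% of the called cells of the libraries. Over all macrophage-like clusters 6.23%, 3.26%, 4.65% and 4.25% of cells were called, and over neutrophil-like clusters 1.44%, 0.546%, 1.04% and 0.999%. Cluster 7 carried the macrophage-like value, and in the other macrophage-like clusters, 2, 3 and 6, the share was 0 to 2.86%. In the monocyte-like cluster 1.19%, 9.40%, 5.29% and 5.56% of cells were called, above the macrophage-like share in Tumor libraries 3 to 5. The neutrophil-like clusters made up 37.0%, 63.2%, 48.4% and 56.7% of the sorted cells, so much of each tumor library was not macrophage by its markers. A small cluster of 44 cells led by histone genes, Prtn3 and Elane was called in full, and it was left unnamed because it met both monocyte and neutrophil precursor markers. It supplied 25 of the 76 called cells of Tumor library 3, and 20 of these 25 carried both lists. Mki67, the standard marker of dividing cells, was detected in 10.4%, 7.39%, 7.16% and 7.79% of macrophage-like cells with median corrected counts of 8496 to 8521, and in 2.72%, 2.73%, 3.12% and 2.82% of neutrophil-like cells, with medians of 7482 to 7519. Mature neutrophils do not divide, so the neutrophil-like share was taken as the background, although 1 of these clusters also carried precursor markers and the neutrophil-like clusters had median genes of 1326 to 1614.5, against 2341 to 2540 in the macrophage-like ones. The macrophage-like share lay above it in each of the 4 tumor libraries, and in the monocyte-like cluster Mki67 was detected in 7.11%, 22.1%, 14.9% and 13.5% of cells. The Mki67 share of macrophage-like cells was not taken without cluster 7, and the part of gene detection in it was not tested.

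The levels of the members were then compared between B-MF and Mo-MF by limma on log2(mean corrected count per cell + 0.1), and differences are on that scale, where changes of low genes look smaller than they are. Of the 42 members, 34 passed the minimum mean of 0.1 over the 4 libraries, and Uhrf1, Dtl, Ung, Ccne1, Ccne2, Cdc6, Aurka and Bub1 did not. Of these 34, 9 were higher and 2 lower in B-MF (limma, Benjamini-Hochberg adjusted p under 0.05 over all 8633 genes tested). Among all genes 22.6% were higher and 16.9% lower, so the members passed about as often as other genes in the higher direction. The number of members called was 28 without B-MF replicate 2, 15 without B-MF replicate 1, 6 without Mo-MF replicate 1 and 7 without Mo-MF replicate 2. The median difference was 0.05 for the 16 replication genes tested and 0.12 for the 18 mitosis genes, beside 0.02 for all genes. Without clusters of other cell types 7 members were called, 5 higher and 2 lower.

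**Figure D3:**
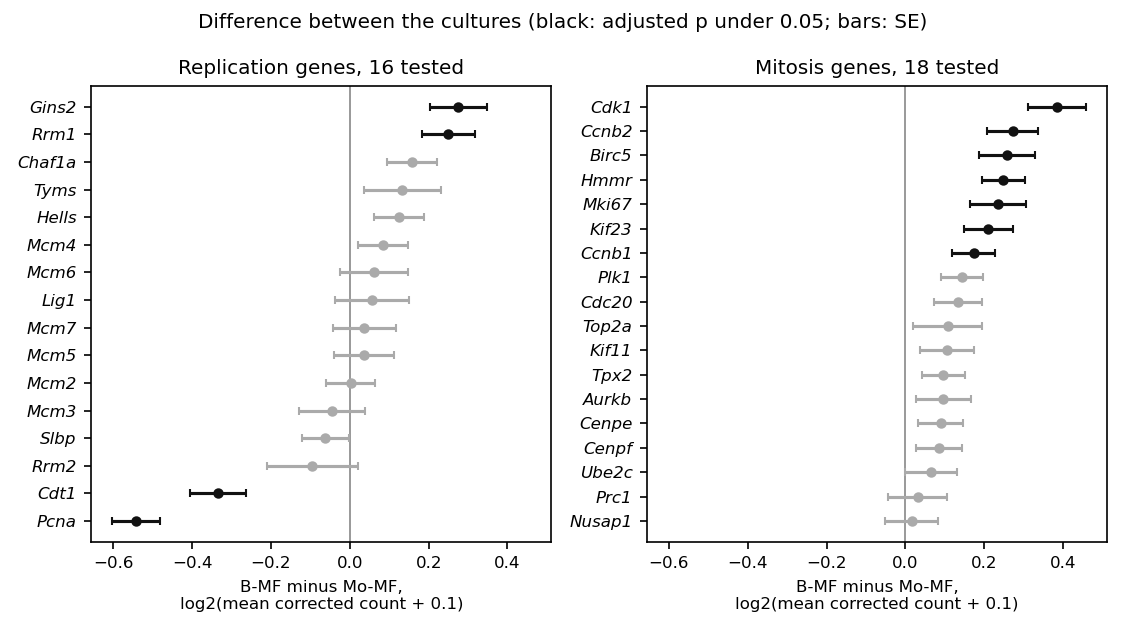
Difference B-MF minus Mo-MF in log2(mean corrected count + 0.1) for the 34 members tested (x axis), with the standard error from 2 libraries a group. Black marks an adjusted p under 0.05: 7 of 18 mitosis genes lie to the right, and Pcna at -0.54 and Cdt1 at -0.34 lie apart on the left of the replication genes.

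The helicase genes did not separate the cultures. Mcm2 averaged 0.197 and 0.169 corrected counts per cell for B-MF and 0.176 and 0.188 for Mo-MF. Mcm3 was at 0.385 and 0.312 against 0.340 and 0.383, and Mcm4 at 0.238 and 0.204 against 0.196 and 0.209. Mcm5 stood at 0.222 and 0.187 against 0.180 and 0.214.
Mcm6 stood at 0.350 and 0.274 against 0.280 and 0.307, and Mcm7 at 0.221 and 0.171 against 0.182 and 0.194. The groups overlapped for each of these 6 genes, their differences ran from -0.05 to 0.08, and the smallest adjusted p was 0.335 (limma, Mcm4). Mcm2, Mcm5, Mcm6 and Mcm7 turned slightly negative without clusters of other cell types.

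Pcna and Cdt1 were the replication genes called lower in B-MF, while Mcm3, Slbp and Rrm2 also had differences below 0, without passing. Pcna averaged 0.997 and 0.895 corrected counts per cell for B-MF against 1.41 and 1.43 for Mo-MF, so every Mo-MF library lay above every B-MF library. The difference was -0.54 ± 0.06 (SE), with adjusted p = 2.4e-04 by limma. Cdt1 had 0.256 and 0.209 for B-MF and 0.313 and 0.324 for Mo-MF, again without overlap (difference -0.34 ± 0.07, limma adjusted p = 0.00679). Both were still lower in each of the 4 fits that left out 1 library, and without clusters of other cell types, at -0.61 and -0.38. Without a filter on low values Pcna was called and Cdt1 was not (limma adjusted p = 0.0148 and 0.0758). Rrm2, the subunit of ribonucleotide reductase that is made in S phase, had 0.162 and 0.102 against 0.131 and 0.161 and did not pass (-0.10 ± 0.12, limma adjusted p = 0.556).

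Gins2 and Rrm1 were the replication genes higher in B-MF. Gins2, a subunit of the GINS complex that activates the helicase, was at 0.337 and 0.278 for B-MF and 0.229 and 0.242 for Mo-MF (difference 0.28 ± 0.07, limma adjusted p = 0.0182). Rrm1, the large subunit of ribonucleotide reductase, was at 0.425 and 0.373 against 0.304 and 0.335 (0.25 ± 0.07, limma adjusted p = 0.0196). The 2 groups did not overlap for either gene, but both calls were lost without Mo-MF replicate 1, with a pseudocount of 0.01 (adjusted p = 0.0508 and 0.0519) and without a filter on low values (0.121 and 0.11), and that of Rrm1 also without clusters of other cell types (adjusted p = 0.0598). Chaf1a, a histone chaperone at the fork, had 0.141 and 0.125 against 0.0997 and 0.118 and did not pass (0.16 ± 0.06, limma adjusted p = 0.0819). The other replication genes tested (Hells, Lig1, Tyms and Slbp) had differences of -0.06 to 0.13 and did not pass. Of these, Hells passed the minimum mean only through B-MF, which favours a difference above 0.

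Of 18 mitosis genes tested, 7 were higher in B-MF and 0 lower (limma), beside 22.6% and 16.9% of all genes, and all 18 differences were above 0 (17 of 18 under median-of-ratios scaling, 16 of 18 without clusters of other cell types or without Mo-MF replicate 1, and 14 of 18 without B-MF replicate 1), beside 4811 of all 8633 genes. Of the 18, Aurkb, Plk1 and Kif11 passed the minimum mean only through B-MF, which favours a difference above 0. At an unadjusted p under 0.05, 8 of the 18 passed, beside 4140 of the 8633 genes. Cdk1 was at 0.582 and 0.506 for B-MF and 0.369 and 0.418 for Mo-MF, with no overlap, a difference of 0.38 ± 0.07 and adjusted p = 0.00433 by limma. Ccnb2 was at 0.288 and 0.249 against 0.212 and 0.198 (0.27 ± 0.06, limma adjusted p = 0.0113). Birc5, survivin, a member of the chromosomal passenger complex, was at 0.660 and 0.559 against 0.493 and 0.490 (0.26 ± 0.07, limma adjusted p = 0.0211).
Both groups were again apart for these genes. Mki67 was at 0.749 and 0.635 against 0.566 and 0.576 (0.24 ± 0.07, limma adjusted p = 0.0313), and Ccnb1, the other mitotic cyclin, at 0.176 and 0.160 against 0.135 and 0.140 (0.17 ± 0.05, limma adjusted p = 0.0349). Top2a was at 0.679 and 0.554 against 0.530 and 0.598 and did not pass (0.11 ± 0.09, limma adjusted p = 0.378). Hmmr and Kif23, which act on the spindle and in cytokinesis, made up the 7, at 0.25 and 0.21. Cdk1 and Birc5 were called in all 4 fits that left out 1 library, whereas Mki67 and Ccnb1 lost the call without either Mo-MF library, Ccnb2 and Hmmr without Mo-MF replicate 2, and Kif23 without Mo-MF replicate 1. Without clusters of other cell types Cdk1, Ccnb2, Mki67 and Hmmr were called and Birc5, Ccnb1 and Kif23 were not. Without a filter on low values Hmmr alone of the 7 was called (limma adjusted p = 0.0374), and with a pseudocount of 0.01 Mki67, Birc5 and Kif23 were not called.

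The means of these genes combine the called cells with the many uncalled ones, so both were taken apart; the division was added after the values were seen. Most counts of the mitosis genes came from called cells, with a median over the genes of 83.2% to 89.5% in the culture libraries, and for Mki67 81.3% to 89.0%. For Pcna the called cells gave only 24.5% to 31.3% of the counts, and for Slbp, which binds histone mRNA, 24.7% to 28.7%. In called cells no difference was detected for the mitosis genes. Cdk1 had 3.38 and 3.06 in called B-MF cells and 3.0 and 3.19 in called Mo-MF cells. Of 20 mitosis members tested in called cells by limma 0 passed, and 0 had an unadjusted p under 0.05, with a range of differences from -0.17 to 0.17. Among all 9471 genes tested there 15.6% were higher and 12.4% lower in B-MF, and of the 22 replication members 0 were higher and 2 lower, Pcna and Cdt1, with 2 at an unadjusted p under 0.05. Since the mitosis list itself picked these cells, their levels describe the call as well as the cells.

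In uncalled cells the same genes were low but uneven between cultures. Cdk1 was at 0.252 and 0.233 in uncalled B-MF cells and 0.121 in both libraries of uncalled Mo-MF cells. Mki67 was at 0.117 and 0.132 against 0.0892 and 0.0703. Only these mitosis members reached a mean of 0.1 over the 4 libraries in uncalled cells, and Mki67 did so through B-MF alone. Below that minimum, Ccnb2 had 0.0790 and 0.0752 against 0.0379 and 0.0323. In all, 18 of the 20 mitosis genes had a higher mean in uncalled B-MF cells, Cenpf and Plk1 being the others, and the median log2 ratio of the means was 0.65, against -0.01 in called cells. Of the 8447 genes tested in uncalled cells, 4609 had a difference above 0. Their median was 0.02 on the scale of log2(mean + 0.1), on which low genes change less than in the plain ratio. That difference between uncalled and called cells was not tested. Uncalled cells were themselves defined by these genes, and they include the 34 and 34 B-MF cells and the 10 and 17 Mo-MF cells with 7 mitosis genes, so their levels are descriptions.
Among the 8 replication genes that passed the minimum in uncalled cells, Gins2 and Rrm1 were higher and Pcna and Cdt1 lower by limma, beside 22.0% and 16.8% of all 8447 genes tested there. Pcna was at 0.766 and 0.723 against 1.16 in both Mo-MF libraries in uncalled cells, and at 2.96 and 2.50 against 4.01 and 4.0 in called cells. It was thus lower in B-MF whether or not a cell was called. Median genes per uncalled cell were 3782 and 3313 for B-MF and 3793 and 3693 for Mo-MF.

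**Figure D4:**
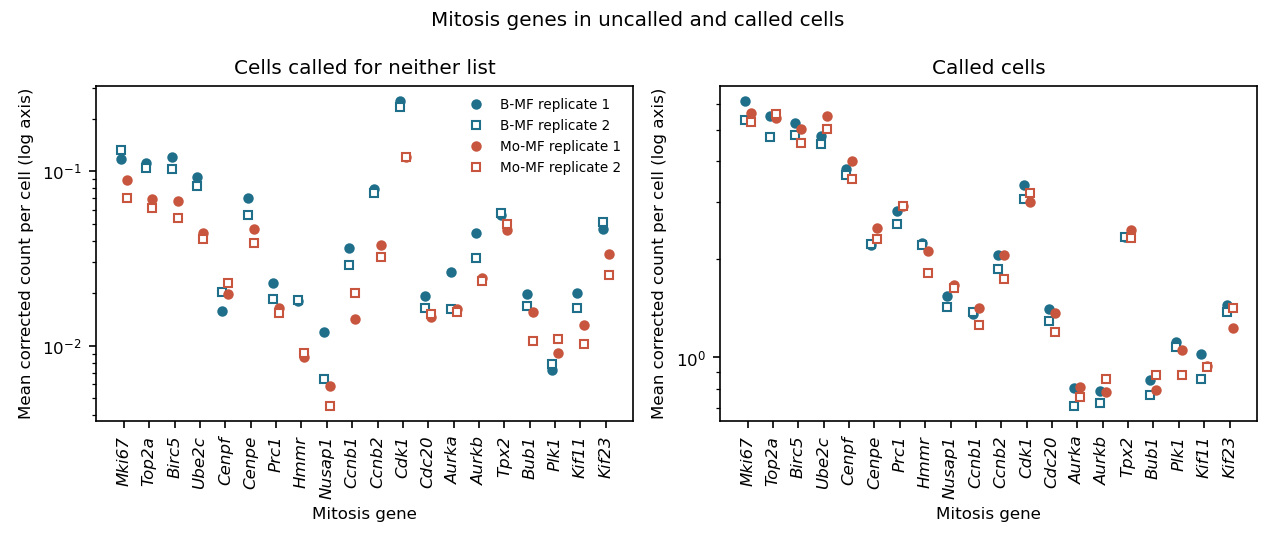
Mean corrected count per cell (log axis) of the 20 mitosis genes in cells called for neither list (left) and in called cells (right), 1 point for each of the 4 culture libraries. In uncalled cells the B-MF points lie above the Mo-MF points for most genes, for Cdk1 at 0.252 and 0.233 against 0.121, and in called cells the points mix.

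Genes of the same pathways that had no part in the calls were then followed. Of 40 further replication genes, 26 were tested, of which 0 were higher and 2 lower in B-MF (limma, with 5 at an unadjusted p under 0.05), beside 22.6% and 16.9% of all genes and 4140 of 8633 unadjusted. Under median-of-ratios scaling 4 were higher and 6 lower, beside 27.2% and 27.0% of all genes. Of the lower ones, Rfc2, a subunit of the loader that places Pcna on DNA, was at 0.986 and 0.889 for B-MF and 1.33 and 1.34 for Mo-MF (-0.47 ± 0.06, limma adjusted p = 4.7e-04). Of 47 further mitosis genes 23 were tested, of which 5 were higher (Cenpa, Anln, Smc4, Cdca8 and Incenp) and 0 lower, with 9 at an unadjusted p under 0.05 (9 higher and 1 lower under median-of-ratios scaling), and the 5 of 23 were near the 22.6% of all genes that were higher. Cenpa, the histone of centromeres, was at 1.87 and 1.78 against 1.28 and 1.33 (0.45 ± 0.05, limma adjusted p = 3.3e-04). Anln, a scaffold of the cleavage furrow, was at 0.140 and 0.113 against 0.0745 and 0.0880 (0.32 ± 0.07, limma adjusted p = 0.0078), and it passed the minimum mean only through B-MF. All 40 further replication genes had a higher mean in called than in uncalled cells in each of the 8 libraries, with a median ratio of 7.60 to 8.08 in the cultures. The further mitosis genes did so too, each with counts in a library, with a median ratio of 35.4 to 51.7 in the cultures. In macrophage-like clusters only, the median ratio in the cultures was 6.17 to 7.03 for the further replication genes and 7.74 to 9.89 for the further mitosis genes. No share over all genes was taken for these ratios. Called cells also had more genes detected, with medians of 4495 to 4646 against 3313 to 3793 in the cultures, and the part of this was not tested. Markers of cell types differed by library. Of the macrophage markers in B-MF, 0 of 10 were higher in called cells (median ratios 0.655 and 0.709), in Mo-MF 6 of 10 (1.05 and 1.06), and in the tumor libraries 7 to 9 of 10. Neutrophil precursor markers were higher in called cells for 6 of 6 markers in both Mo-MF libraries (median ratios 5.55 and 5.76) and in Tumor libraries 3, 4 and 5 (12.2, 4.46 and 7.32), and for 3 of 6 in Tumor library 2 (1.04). In macrophage-like clusters only, they were higher for 3 and 4 of 6 in Mo-MF (1.18 and 1.35) and for 0, 6, 1 and 0 of 6 in the tumor libraries, and the macrophage markers for 2 and 1 of 10 in B-MF, 7 and 7 in Mo-MF and 5 to 6 in the tumor libraries. Monocyte markers were higher for 0 of 5 in each tumor library within macrophage-like clusters (median ratios 0.111 to 0.307), while over all cells they were higher for 0, 5, 3 and 4 of 5. The part of these markers in the ratios of the cell cycle genes was not tested.

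Several regulators of the cycle had differences of over 1 on the log2 scale, which no member had. Of 30 regulators 23 were tested, 9 of them higher and 2 lower in B-MF by limma, beside 22.6% and 16.9% of all genes. The list was chosen with earlier results of these data known, which can favour such a count, so it is a description. Under median-of-ratios scaling the counts were 10 and 6, beside 27.2% and 27.0%. Ccnd1, cyclin D1, which starts the passage through G1, was at 2.40 and 2.26 for B-MF and 0.947 and 1.0 for Mo-MF (1.18 ± 0.06, limma adjusted p = 1.75e-06). Myc, a factor that drives growth, was at 0.414 and 0.399 against 0.0700 and 0.0731 (1.56 ± 0.05, limma adjusted p = 2.2e-07). Of the 6 Cdkn inhibitors tested, Cdkn1a, Cdkn2a and Cdkn2c were higher, Cdkn1c and Cdkn2d lower, and Cdkn1b did not pass.
Cdkn2a, the locus of p16 and p19ARF, was at 0.329 and 0.263 for B-MF and 0.0031 and 0.00445 for Mo-MF (1.93 ± 0.08, limma adjusted p = 6.85e-07), and like Myc it passed the minimum mean only through B-MF. Cdkn1a, p21, was at 9.24 and 8.70 against 4.09 and 3.91 (1.15 ± 0.06, limma adjusted p = 1.9e-06). Cdkn1c, p57, went the other way, at 0.0754 and 0.127 against 0.418 and 0.334 (-1.25 ± 0.12, limma adjusted p = 1.2e-04). None of these groups overlapped, and each of these 5 calls held in all 4 fits that left out 1 library.
Cdkn2d, p19INK4d, was at 0.830 and 0.765 against 0.95 and 0.912 (-0.20 ± 0.06, limma adjusted p = 0.0246), but the sign turned without clusters of other cell types (0.14, adjusted p = 0.0851). E2f1 was at 0.424 and 0.353 against 0.390 and 0.399 and did not pass (-0.02 ± 0.07, limma adjusted p = 0.835). Foxm1, Mybl2 (B-Myb) and Ccnd2 were under the minimum, at 0.0431 to 0.0628, 0.0178 to 0.0276 and 0.0394 to 0.0548 corrected counts per cell. The other regulators called were Cdkn2c, Cdk6, E2f5, Rb1 and Rbl2, all higher in B-MF by 0.18 to 0.85.

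Among the 3 classes of called cells, most regulators had their highest mean in cells with both lists. B-MF replicate 1 had 24 of 30 regulators there, and B-MF replicate 2 likewise 24 of 30. Mo-MF replicate 1 had 21 of 30 there, and Mo-MF replicate 2 had 19 of 29. The replication-only class held the highest mean for 2 to 7 regulators of a library, and the mitosis-only class for 2 to 6. Ccnd1 was highest in cells with replication genes only, at 7.58 and 7.62 for B-MF and 5.49 and 5.35 for Mo-MF. In cells with mitosis genes only it was at 2.70 and 2.50 for B-MF and 0.753 and 0.566 for Mo-MF, near the 1.95 and 1.89 and the 0.698 and 0.734 of cells called for neither list. The Ccnd1 mean thus differed by class within the called cells, and the B-MF libraries lay above the Mo-MF libraries in each class.
E2f1 was high in cells with replication genes, at 0.95 and 0.927 in B-MF replication-only cells and 1.10 and 1.17 in those of Mo-MF, and back at 0.221 to 0.361 with mitosis genes only. Foxm1 was nearly absent from replication-only cells (0.0164 to 0.0455) and reached 0.797 to 0.882 with both lists. Ccna2, cyclin A2, which is also one of the further mitosis genes, followed at 2.46 to 3.07 with both lists and 0.0396 to 0.0779 with replication genes only. Mybl2 was highest with both lists, at 0.380 to 0.538.
The inhibitors had orders of their own. Cdkn2c, p18INK4c, was at 3.31 and 3.25 in B-MF cells with both lists and 2.43 and 2.21 in those of Mo-MF, against 0.153 to 0.502 in replication-only cells and 0.155 to 0.448 in cells of neither list. Cdkn1a in replication-only cells was at 4.75 and 5.27 for B-MF and 2.49 and 2.58 for Mo-MF, below the 9.60 and 9.02 and the 4.13 and 3.94 of cells of neither list. In 3 of the 4 culture libraries this class had the lowest Cdkn1a mean, and in B-MF replicate 2 the mitosis-only cells were lower, at 4.97. Cdkn2a in B-MF had 0.227 and 0.135 with replication genes only and 0.608 and 0.50 with both lists. These classes are descriptions within libraries, and cells of a library are not replicates.

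**Figure D5:**
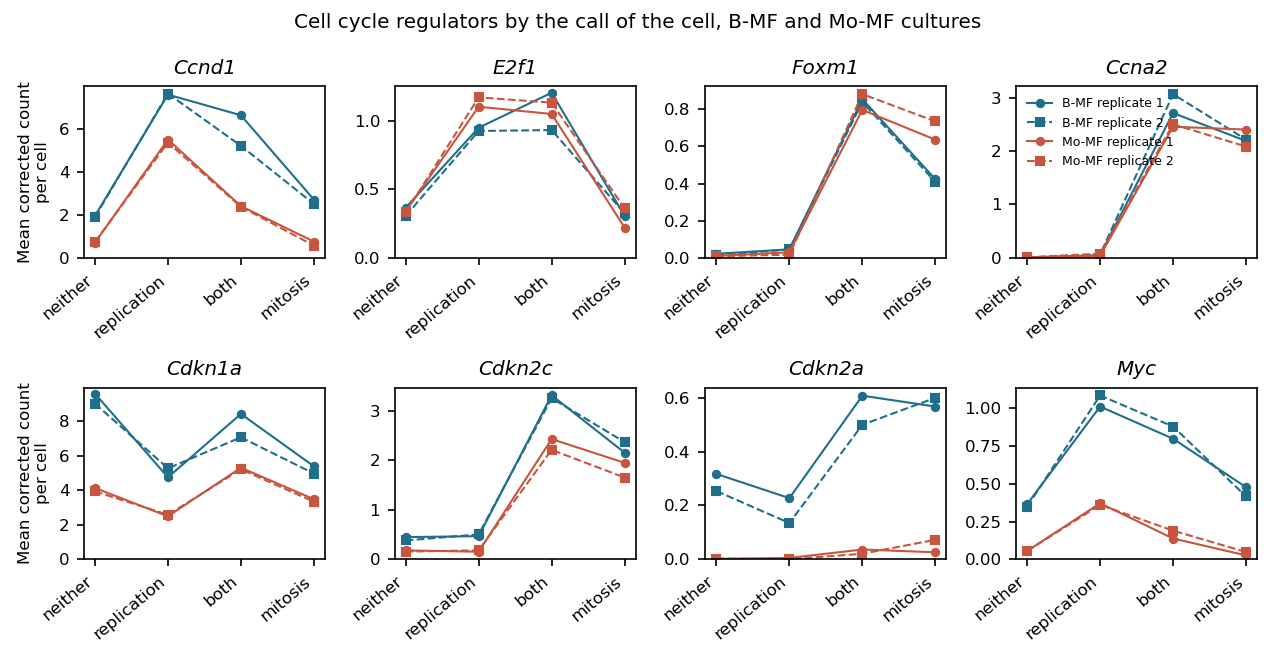
Mean corrected count per cell (y axis) of 8 regulators in cells called for neither list, for replication only, for both and for mitosis only, 1 line for each of the 4 culture libraries. Ccnd1 peaks at replication only (5.35 to 7.62), Foxm1 and Ccna2 at both lists, and the B-MF lines of Ccnd1, Cdkn2a and Myc lie above the Mo-MF lines in every class.

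The tumor libraries were described on their own scale. Slbp and Pcna had the highest means of the members, 0.557 to 0.645 and 0.264 to 0.356 corrected counts per cell. Mki67 was at 0.166, 0.225, 0.202 and 0.169, of which 60.1% to 75.4% came from called cells. Cdk1 was at 0.0418, 0.0535, 0.0490 and 0.0450. Ccnd1 was at 2.85, 2.22, 3.37 and 1.38 in replication-only tumor cells and 0.344, 0.12, 0.202 and 0.146 in cells of neither list. Cdkn1a was at 2.36, 3.78, 3.22 and 4.27 in called tumor cells and 8.18, 9.63, 7.82 and 9.26 in the rest. Neutrophil-like cells were 37.0% to 63.2% of the libraries and 10.5% to 18.7% of their called cells. Within macrophage-like clusters, where 19 to 103 cells were called, Cdkn1a was at 1.69, 3.32, 2.82 and 3.44 in called cells and 7.13, 7.20, 7.47 and 8.23 in the rest, so each library had a lower mean in called cells there too. Ccnd1 in these clusters was at 3.55, 1.71, 4.95 and 2.13 in replication-only cells and 0.555, 0.227, 0.339 and 0.271 in cells of neither list. Over all cells of a library the called cells were 140, 76, 95 and 91 in number, and their classes held 18 to 58 cells. Within macrophage-like clusters the replication-only cells were only 42, 7, 20 and 15.

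The ATAC-seq lists ask whether the start sites of the members were already open in B-cell precursors. Bone marrow libraries had 65832 to 76530 listed peaks and spleen libraries 43407 to 50392. Of 37 members with a window, 34 had a peak at the start in all 12 libraries, beside 9470 of all 27025 genes with a window. In a single library 36.6% to 43.5% of all genes with a window had one. Pcna and Aurka had no listed peak in their windows in any library. With peaks within 1000 bases of the start, 35 of the 37 members had one in all 12 libraries, beside 10507 of 27025 genes. A peak missing from a window can thus lie near it. The median of the members with a peak lay at the 88.5th to 93.5th percentile of peak fold enrichment in its library, and that of all genes with a peak at the 79.7th to 83.9th. Bulk libraries cannot tell fewer open cells from less opening in each cell.
Percentiles were taken within peak lists of unequal length, and the next counts are descriptions on that scale. By percentile, 9 of 34 members lay higher in all 6 BM libraries than in all 6 spleen libraries and 3 lay lower, beside 29.1% and 3.86% of 9470 genes. Cdt1 lay at the 78.2nd to 87.7th percentile in BM (median 82.2) and the 60.5th to 71.3rd in spleen (median 69.0). Birc5 lay at 89.3 to 94.7 in BM (median 91.8) and 69.9 to 82.4 in spleen (median 78.9). Uhrf1, which maintains DNA methylation behind the fork, lay lower in BM, at 80.1 to 85.7 (median 82.3) against 90.7 to 97.2 (median 94.9).
The 9 members higher by percentile were Mcm5, Lig1, Tyms, Ccne1, Cdt1, Birc5, Ccnb1, Kif11 and Kif23, and the 3 lower ones Uhrf1, Cenpf and Bub1. Cdk1 overlapped, at 90.2 to 96.1 (median 94.4) in BM and 91.7 to 97.1 (median 94) in spleen, and so did Ccnb2 and the other Mcm genes with a window. On the scale of fold enrichment itself the direction turned, with 0 members higher in BM and 16 lower, beside 4.84% and 25.2% of all genes, and the number of peaks also differed between the tissues. Ung, the uracil glycosylase, had a peak in its window in 2 of the 6 BM libraries, at 14.0 and 16.6 fold. In all 6 spleen libraries it had one, at 3.34 to 4.51 fold. Peaks just outside the window do not enter these counts.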

How the data were processed

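Per the labels, the authors made the single-cell files with STAR and Cell Ranger, and the study's methods name Seurat SCTransform; versions per data type are not given in the labels. The deposited single-cell values are the natural log of 1 plus a corrected count, whole after back-transformation to within 0.002, so depth was adjusted within each table and counts here mean those corrected counts. The 2 tables were normalized separately and no test was run across them. The study's stated minimum was 1000 genes per cell, and the lowest cell in the files had 848. Doublets were not called, and 3 to 28 barcodes of a library also occurred in another library of its table. Per the labels, the authors made the ATAC-seq peak lists with cutadapt, BWA and MACS2 on mm10, 1 list for each library; the deposited columns used are the fold enrichment (a ratio) and the −log10 q-value of each peak.

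The members and all further gene lists were chosen with earlier results of these data known. Columns of the tumor table carry the numbers 2 to 5, which match no label number, so each was taken as a library of the tumor group. There were 0 columns of other samples. Means per library were compared with limma 3.58.1 in R 4.3.3 on log2(mean + 0.1) for genes averaging 0.1 or more over the 4 libraries, and p was adjusted by Benjamini-Hochberg over all of them; the script was tested on simulated data. Shares used two-sided exact permutation tests. Cells were clustered with leidenalg 0.10.2. Intervals are exact binomial at 95% and cover counting error only. ATAC-seq values were ranked as percentiles within a library, and a gene's peak is one that overlaps its promoter window.

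Values are given per library for the 6 Mcm genes, Pcna, Mki67, Top2a, Cdk1 and Ccnb1, for the 3 members of each list with the largest difference in each direction, for the 2 genes of the further lists with the largest difference past the threshold in each direction, less 1 gene that is not reported here, and for E2f1, Foxm1, Mybl2, Ccnd1, Ccnd2, Cdkn1a and Cdkn2a. Alternatives changed the pseudocount, the filter, the scaling, the cells and the library set. The alternatives on called and uncalled cells, on the mitochondrial cluster and on the 4-gene limit were added after the data were seen. For the phase balance, the setting without clusters of other cell types was not planned either. The mitochondrial cluster, culture cluster 7, was so named because mt-Atp6 was among its leading genes, behind Igha, Igkc, Jchain, Malat1 and Tsix. This cluster held 318 and 242 cells of B-MF and 116 and 92 cells of Mo-MF. Without it 9 members were higher and 2 lower in B-MF by limma, beside 23.3% and 15.8% of all genes.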

Additional observations from a re-analysis of the deposited data

Results flagged for a closer look

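In Tumor library 3, 39.5% of called cells carried both replication and mitosis genes, against 19.3% to 22.1% in the other 3 tumor libraries. Its gap to the nearest library was 0.860 of the range, above Dixon's 95% critical value for 4 samples. This was 1 of 48 such tests, and chance passes about 1 in 20. Of the 30 cells concerned, 20 lay in the small cluster led by histone genes, Prtn3 and Elane, which holds 25 cells of this library and 4 to 11 of the others.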

How the results depend on the processing

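The number of members called, 11, was 7 with a pseudocount of 0.01, 2 without a filter on low values, 3 with a filter at a mean of 0.5 (where 5 members were tested), 7 with the mean of the natural-log values, 9 with a pseudocount of 1, 12 when scaled to 10000 counts per cell, 14 with median-of-ratios scaling, 7 without clusters of other cell types, 6 in cells called for neither list and 2 in called cells only. Leaving out 1 library gave 6 to 28 members and 2042 to 5498 of all genes (3413 with all libraries); such fits leave a group with 1 library that is assumed to vary like the other group. The B-MF replicates differed by a median of 0.10 in log2 over all genes and the Mo-MF replicates by 0.03. The difference in the replication share reversed to -0.096 points after thinning to 5000 and to -0.0034 without clusters of other cell types, and ranged from -0.23 to 0.90 on leaving out 1 library. On leaving out 1 library the mitosis share difference ranged from 0.27 to 1.12 points and the phase balance difference from -3.75 to -0.0195; with a limit of 6 genes they were 1.33 and -5.55, and in macrophage-like clusters only 0.555 and -7.29. By log2 fold enrichment of ATAC-seq peaks 0 members were higher and 16 lower in BM. By percentile 9 were higher and 3 lower, and on that scale leaving out 1 library gave 9 to 10 and 3 to 5. Small differences reversed for Mcm2 (-0.019 with median-of-ratios scaling, -0.048 without other cell types, -0.13 in called cells), Mcm4 (-0.11 in called cells), Mcm5 (-0.017 without other cell types, -0.10 in called cells), Mcm6 (-0.016 and -0.10 likewise), Mcm7 (-0.022 and -0.10 likewise), Top2a (-0.10 in called cells) and Cdkn2d (0.14 without other cell types, 0.22 in macrophage-like clusters only). On leaving out 1 library the range was -0.070 to 0.074 for Mcm2, -0.16 to 0.071 for Mcm3, -0.047 to 0.12 for Mcm5, -0.071 to 0.20 for Mcm6, -0.086 to 0.16 for Mcm7, -0.019 to 0.23 for Top2a, -0.28 to 0.094 for Rrm2 and -0.13 to 0.083 for E2f1. Of the values for 31 named genes, 391 kept direction and call, 57 lost the call, 12 gained it and 24 reversed. The cause was not tested.

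The replicate numbers are shared by B-MF and Mo-MF only as numbers: the deviations of same-numbered libraries correlated at 0.13 over 8633 genes, with 2 pairs. With the replicate number as a block, 13 members and 3908 of all genes were called. The macrophage-like-only setting leaves out cluster 6, which has most of the cells with mitosis genes. Shallower tumor cells limit how many members can be detected in a cell.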
